A study of Mus musculus with 5 samples.

Results

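The 10 genes described here are targets of the transcription factor HIF-1 that lie outside glycolysis. They comprise the mitophagy receptor genes *Bnip3* and *Bnip3l*, the secreted ligand genes *Vegfa* and *Adm*, the collagen prolyl 4-hydroxylase genes *P4ha1* and *P4ha2*, and the stress response genes *Ddit4*, *Ndrg1*, *Higd1a*, and *Ankrd37*. They were chosen by name for their known role, with earlier results of these data known. All 10 were found among the 20224 genes of the count table by their Ensembl identifiers. The libraries are bulk RNA-seq of sympathetic neurons from the ganglia of E14.5 mouse embryos of non-diabetic pregnancies. There were 2 libraries of control embryos, numbered 5 and 6, and 3 of *Hif1aCKO* embryos, numbered 3, 4, and 5. Control embryos carried *Hif1a* loxP/+ and *Isl1Cre*, whereas *Hif1aCKO* embryos carried *Hif1a* loxP/loxP and *Isl1Cre*. Both genotypes also carried the *tdTomatoAi14* reporter, which Cre switches on, and the *Prph-eGFP* transgene under the peripherin promoter, and 100 cells positive for both colours were sorted for each library. The labels also describe controls of the line without the Cre allele, and the genotype given here is that of the reporter controls, in which tdTomato needs Cre. On that genotype the control neurons had passed through Cre with 1 floxed allele of their own, and both groups carried *Cre* inserted at the *Isl1* locus.

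HIF-1 is a heterodimer of an oxygen-regulated alpha subunit, encoded by *Hif1a*, and a constitutive beta subunit. At low oxygen the alpha subunit escapes prolyl hydroxylation and degradation, and the dimer binds short DNA elements with the core ACGTG or GCGTG near its target genes. Beside glucose uptake and glycolysis, its classical targets include genes that remove mitochondria, attract blood vessels, modify collagen, and restrain growth under stress. The comparison of the genotypes asks how these genes stood in sympathetic neurons with a deletion of *Hif1a*.

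The sequences before the transcription starts show where the core letters stand. Of the 10 genes, 8 matched an entry of RefSeq promoters on GRCm38.p6, a patch release of the build to which the reads were mapped, and *Bnip3l* and *Ndrg1* did not. Windows of 250 bases before each start were searched for ACGTG and GCGTG and, for the other strand, CACGT and CACGC, and overlapping matches were joined into 1 site. All 8 genes held at least 1 site in a window, and so did 41.5% of the 27018 genes in that collection. Of the windows of all genes, 13.5% held at least 2 sites and 4.7% at least 3. *Bnip3*, *P4ha1*, and *Ddit4* are shown because they are the member with the smallest p-value and those whose fitted difference was above 0, and *Vegfa* because the window at its first start held 0 sites. Capitals mark the sites, each window is written 5′ to 3′ on the strand of its gene, and bases in annotated exons were left off.
*Bnip3* (chr7:138909520-138909756, minus strand): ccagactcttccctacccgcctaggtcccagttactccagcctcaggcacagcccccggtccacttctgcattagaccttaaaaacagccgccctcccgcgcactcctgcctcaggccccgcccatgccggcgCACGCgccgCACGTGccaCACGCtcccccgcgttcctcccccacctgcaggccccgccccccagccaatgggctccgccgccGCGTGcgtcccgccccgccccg
*P4ha1* (chr10:59323046-59323295, plus strand): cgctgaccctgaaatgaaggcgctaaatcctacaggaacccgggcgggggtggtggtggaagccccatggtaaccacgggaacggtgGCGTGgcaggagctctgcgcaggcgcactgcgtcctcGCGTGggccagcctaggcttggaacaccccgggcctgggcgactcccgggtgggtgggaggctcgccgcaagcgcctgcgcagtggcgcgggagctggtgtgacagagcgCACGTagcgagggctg
*Ddit4* (chr10:59951835-59952020, minus strand): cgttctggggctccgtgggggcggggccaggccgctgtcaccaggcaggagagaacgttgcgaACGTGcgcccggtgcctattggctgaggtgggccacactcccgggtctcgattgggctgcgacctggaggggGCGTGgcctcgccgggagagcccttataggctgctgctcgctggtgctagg
*Vegfa* (chr17:46032378-46032627, minus strand): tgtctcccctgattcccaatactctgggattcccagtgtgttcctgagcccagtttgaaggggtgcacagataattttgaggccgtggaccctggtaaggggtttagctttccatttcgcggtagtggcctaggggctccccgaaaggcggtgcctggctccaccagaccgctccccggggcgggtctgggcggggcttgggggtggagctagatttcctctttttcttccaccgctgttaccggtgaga
*Bnip3* held 4 sites, one of them the palindrome CACGTG that begins 108 bases before the start and reads as a match on both strands. *P4ha1* and *P4ha2* held 3 sites each, *Adm* and *Ddit4* held 2, and *Higd1a* held 1 run of letters, GCGTGCGTG, in a window that lies in annotated exons throughout. The *Ankrd37* window held 3 sites, 2 of them outside annotated exons. The nearest began 6 bases before the start, within the 17 bases of the window that lie in an annotated *Ankrd37* exon. For *Vegfa* a second RefSeq start had 2 sites in its window, of which 218 bases lie in annotated *Vegfa* exons. The letters are a description of the windows, and no binding was measured.

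Total counts ranged from 8254211 to 9700887 over the 5 libraries. The table holds counts of reads per gene without normalization, and normalized counts below are divided by the effective library size after TMM scaling and brought to the mean size of the libraries. Library *Hif1aCKO* replicate 3 stood apart by genes of Schwann cell precursors. It had 926 counts of *Fabp7*, 51 of *Cdh19*, 50 of *Erbb3*, and 8 of *Sox10*, against at most 9, 0, 2, and 1 in the other libraries. Values without this library are given below for some of the results. *Hif1a* itself, summed over all its exons although only exon 2 is floxed, had 2086 and 1584 normalized counts in control and 2747, 1757, and 2135 in *Hif1aCKO* libraries, so that the deletion could not be read from these counts. *Isl1*, the locus of the Cre driver, had 12577 and 14019 against 8634, 7800, and 8722. *Prph*, whose promoter drives the sort reporter, had a log2 fold change of 0.15.

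None of the 10 genes was called between the genotypes. The quasi-likelihood test of edgeR was run on 15032 genes, and the call rule asked for a p-value that stayed under 0.05 after adjustment, a log2 difference larger than 0.3 either way, and 50 or more normalized counts on average. The test called 0 genes (0%) in the whole table and 0 of the 10. Without adjustment, 1 of the 10 genes (*Bnip3*, lower) and 1153 genes in all (7.67%) had p-values under 0.05, 3.85% of the genes tested on the lower side and 3.83% on the higher side. DESeq2 called 60 genes (0.388% of those with an adjusted p-value, 0.194% on the lower side) and 0 of the 10, and its unadjusted p-value was under 0.05 on the lower side for 3.40% of genes and, of the 10, for *Bnip3*. All 10 genes passed the filter on low counts, and 8 reached the mean of 50, which *Vegfa* and *Ddit4* did not. Mean levels in *Hif1aCKO* neurons were below control for 8 genes and above it for *P4ha1* and *Ddit4*, whereas 48.7% of all genes tested had a log2 fold change below 0. The median log2 fold change of the 10 genes was -0.16, beside 0.01 over all genes tested. Control and *Hif1aCKO* libraries were fully apart for 3 genes, *Bnip3*, *Vegfa*, and *Higd1a*, all lower in *Hif1aCKO*, where 12.9% of all genes tested had groups apart in that direction and 25.7% in either. *Vegfa* passed the filter on low counts only through its control libraries, so its separation in that direction was partly set by the filter. The interval of the fitted difference left out 0 for *Bnip3* alone, as the plot of fitted differences shows. Since 5 libraries divide into 2 and 3 in 10 ways, the smallest p-value open to an exact permutation test is 0.1.

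**Figure D1:**
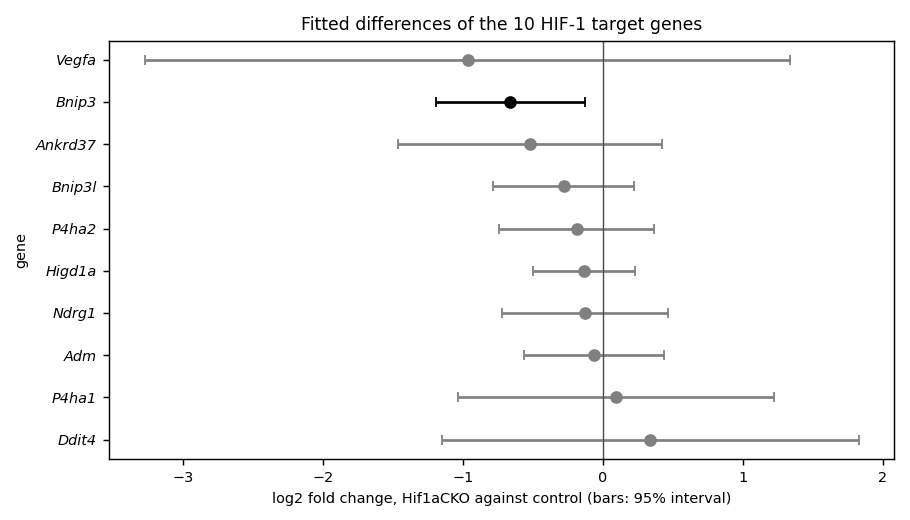
Log2 fold change of *Hif1aCKO* against control for each of the 10 genes on the x axis, with the 95% interval from edgeR's quasi-likelihood fit as a bar. The black point, *Bnip3* at -0.66, has the only bar that leaves out 0, and the bars of *Vegfa*, *Ddit4*, and *P4ha1* are the widest.

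*Bnip3* had the smallest p-value of the 10 genes. It encodes a receptor in the outer mitochondrial membrane that binds LC3 family proteins and so directs mitochondria to autophagy. The gene (ENSMUSG00000078566) lies on the minus strand of chromosome 7 from 138890836 to 138909519. Control replicates 5 and 6 had 509 and 652 normalized counts, and *Hif1aCKO* replicates 3, 4, and 5 had 445, 308, and 348. Both control libraries lay above all 3 *Hif1aCKO* libraries, and the nearest libraries across the genotypes were control replicate 5 and *Hif1aCKO* replicate 3. Control neurons averaged 581 ± 101 (SD, n = 2) and *Hif1aCKO* neurons 367 ± 70.6 (SD, n = 3), 36.8% lower. The log2 fold change was -0.66 (standard error 0.23, 95% interval -1.20 to -0.13), with p = 0.0209 before and p = 0.621 after adjustment (edgeR's quasi-likelihood test) and p = 0.2 by exact permutation. By p-value *Bnip3* ranked 499 of the 15032 genes tested, so the difference did not pass the correction for multiple tests. Without control replicate 5 the log2 fold change was -0.83, and without control replicate 6 it was -0.48. Without *Hif1aCKO* replicates 4 and 5 in turn it was -0.55 (unadjusted p = 0.0540, edgeR) and -0.63 (unadjusted p = 0.0522, edgeR). Without *Hif1aCKO* replicate 3 it was -0.83 (unadjusted p = 0.0101, edgeR). In the annotation, 22.3% of the exonic bases of *Bnip3* are shared with the antisense gene *Gm45507*, which had 231 and 287 normalized counts in control and 235, 154, and 166 in *Hif1aCKO* libraries. No source says that reads were counted by strand, so reads from the 2 genes cannot be told apart there.

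*Bnip3l*, also called Nix, encodes the related receptor that clears mitochondria from maturing red cells. The gene (ENSMUSG00000022051, chromosome 14, 66985239 to 67008877) had 1042 and 1129 normalized counts in control and 1117, 880, and 681 in *Hif1aCKO* libraries. The groups overlapped, because *Hif1aCKO* replicate 3 lay between the control libraries while replicates 4 and 5 lay below both. Its log2 fold change was -0.28 (95% interval -0.79 to 0.22, adjusted p = 0.789 in edgeR's quasi-likelihood test). Leaving out each library in turn moved the value between -0.48, without *Hif1aCKO* replicate 3, and -0.12, without *Hif1aCKO* replicate 5. Within a library, counts of *Bnip3* were 0.489 and 0.578 of those of *Bnip3l* for the control pair and 0.398, 0.350, and 0.511 for the *Hif1aCKO* libraries, so that this ratio overlapped between the genotypes. A processed pseudogene, *Bnip3l-ps*, is annotated, and reads that map to several places were not counted.

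**Figure D2:**
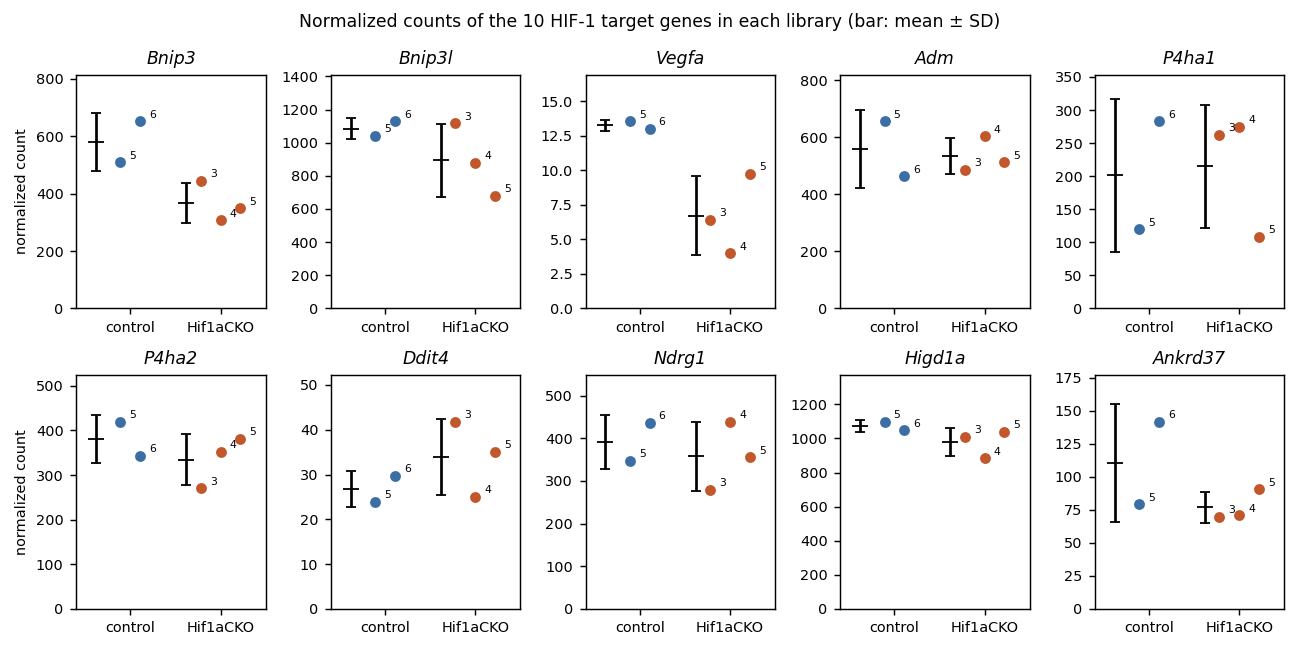
Normalized counts of the 10 genes (y axes from 0, a scale of its own for each gene) in the 2 control libraries in blue and the 3 *Hif1aCKO* libraries in orange. Each point is a library with its replicate number, and the black bar is the group mean ± SD. The groups are apart for *Bnip3*, *Vegfa*, and *Higd1a*, and *P4ha1* is low in control replicate 5 and *Hif1aCKO* replicate 5.

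Of the secreted ligands, *Vegfa* was close to the limit of detection and *Adm* was abundant. *Vegfa* encodes vascular endothelial growth factor A, the main signal that draws blood vessels into tissue. The gene (ENSMUSG00000023951, chromosome 17, 46016993 to 46032369) had 13 and 14 reads in control and 6, 4, and 10 reads in *Hif1aCKO* libraries. It passed the filter on low counts only through its control libraries. The groups did not overlap, but the counting error alone was large. The exact Poisson 95% interval, which covers counting error only, ran from 1.09 to 10.2 for the 4 reads of *Hif1aCKO* replicate 4 and from 6.92 to 22.2 for the 13 reads of control replicate 5. Normalized counts averaged 13.3 ± 0.393 (SD, n = 2) for control and 6.72 ± 2.88 (SD, n = 3) for *Hif1aCKO*. The log2 fold change of -0.97 had a 95% interval from -3.27 to 1.34 (unadjusted p = 0.363, adjusted p = 0.859, edgeR), so no difference was resolved in these libraries.

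*Adm* encodes the precursor of adrenomedullin, a vasodilating peptide. It lies on chromosome 7 from 110627661 to 110629820 (ENSMUSG00000030790) and had 656 and 463 normalized counts in control and 487, 604, and 513 in *Hif1aCKO* libraries. All *Hif1aCKO* libraries lay between the 2 control libraries. The means were 560 ± 137 (SD, n = 2) and 535 ± 61.6 (SD, n = 3), with a log2 fold change of -0.07 and a 95% interval from -0.56 to 0.43 in edgeR's quasi-likelihood fit. The interval does not reach a change of 1 on the log2 scale in either direction, and the sign turned to 0.21 without control replicate 5.

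The collagen prolyl 4-hydroxylase genes showed no common direction. They encode the catalytic alpha subunits that, with the beta subunit P4HB, hydroxylate proline in collagen chains so that the triple helix is stable. *P4ha1* (ENSMUSG00000019916, chromosome 10, 59323296 to 59373304) had 120 and 283 normalized counts in control and 263, 275, and 108 in *Hif1aCKO* libraries. The libraries fell at 2 levels, with the low ones being replicate 5 of each genotype, and the labels do not say that this shared number marks a litter or batch. The log2 fold change of 0.09 had a 95% interval from -1.04 to 1.22 (adjusted p = 0.981, edgeR) and changed sign when single libraries were left out, to -0.40 without control replicate 5, -0.076 without *Hif1aCKO* replicate 3, and -0.12 without *Hif1aCKO* replicate 4, and it was 0.84 without control replicate 6.

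*P4ha2* did not follow this division of the libraries. The gene (ENSMUSG00000018906, chromosome 11, 54100095 to 54131665) had 420 and 343 normalized counts in control and 270, 351, and 381 in *Hif1aCKO* libraries. Its groups overlapped, with *Hif1aCKO* replicate 3 the lowest library, and its log2 fold change was -0.19 (95% interval -0.74 to 0.36, adjusted p = 0.895, edgeR). That value was -0.040 without control replicate 5, -0.058 without *Hif1aCKO* replicate 3, and -0.33 without control replicate 6. Counts of *P4ha1* were 0.285 and 0.283 of those of *P4ha2* in control replicate 5 and *Hif1aCKO* replicate 5, and 0.824, 0.972, and 0.781 in control replicate 6 and *Hif1aCKO* replicates 3 and 4.

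Among the stress response genes, *Higd1a* varied least between libraries, and *Ankrd37* had the fold change farthest from 0, which rested on 1 control library. *Higd1a* encodes a small protein of the inner mitochondrial membrane that supports the respiratory chain at low oxygen. The gene (ENSMUSG00000038412, chromosome 9, 121848563 to 121858362) had 1099 and 1048 normalized counts in control and 1010, 884, and 1039 in *Hif1aCKO* libraries. Both control libraries lay above all *Hif1aCKO* libraries, with control replicate 6 and *Hif1aCKO* replicate 5 close together, and the highest library was only 1.24 times the lowest. The log2 fold change was -0.13 (95% interval -0.50 to 0.23, adjusted p = 0.884, edgeR; exact permutation p = 0.2). The antisense gene *Gm47112* shares 22.5% of the exonic bases of *Higd1a* and had 62 to 105 reads per library.

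*Ankrd37*, which encodes an ankyrin repeat protein and is a direct HIF-1 target, had 79.2 and 142 normalized counts in control and 69.7, 70.9, and 90.5 in *Hif1aCKO* libraries. Its difference rested on control replicate 6, as the other control library lay among the *Hif1aCKO* libraries. The log2 fold change of -0.52 (95% interval -1.47 to 0.42, adjusted p = 0.796, edgeR) was -0.045 without control replicate 6 and -0.88 without control replicate 5. The gene (ENSMUSG00000050914) lies on chromosome 8 from 45996902 to 46005707 where the antisense genes *Lrp2bp* and *Ufsp2* cover 22.7% and 3.70% of its exonic bases.

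*Ndrg1* encodes a cytoplasmic protein that is induced by hypoxia and differentiation, and its loss causes a demyelinating neuropathy. The gene (ENSMUSG00000005125, chromosome 15, 66929318 to 66969640) had 347 and 436 normalized counts in control and 279, 439, and 355 in *Hif1aCKO* libraries. These ranges overlapped, and the log2 fold change of -0.13 (95% interval -0.72 to 0.46, adjusted p = 0.946, edgeR) turned to 0.021 without *Hif1aCKO* replicate 3 and to 0.039 without control replicate 6.

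*Ddit4* encodes REDD1, an inhibitor of the growth kinase mTORC1 that also responds to glucocorticoids and DNA damage. It lies on chromosome 10 from 59949669 to 59951834 (ENSMUSG00000020108) and had 23 and 32 reads in control and 39, 25, and 36 reads in *Hif1aCKO* libraries. The groups overlapped. The log2 fold change was 0.34 (95% interval -1.15 to 1.83, adjusted p = 0.943, edgeR), and it was 0.16 without *Hif1aCKO* replicate 3, 0.19 without control replicate 5, and 0.51 without *Hif1aCKO* replicate 4. The dissociation response genes, which cell isolation can induce, had 6 lower and 4 higher members of 10 tested, and their summed level was 233 and 348 CPM (counts scaled to the library total) in control libraries against 248 to 272 in *Hif1aCKO* libraries.

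Per exonic length the 10 genes spanned levels from below 1 to nearly 40 RPKM, reads scaled to exonic length and effective library size. Over the 5 libraries *Adm* had a mean of 38.5 RPKM, *Higd1a* 38.2, *Bnip3l* 28.7, and *Bnip3* 22.8. The ranges of neighbours in this order overlapped, and they were apart from the next gene, *Ankrd37*, at 6.72 RPKM. *P4ha2* at 6.47, *Ndrg1* at 6.43, and *P4ha1* at 5.82 RPKM overlapped with it and with each other. *Ddit4* at 2.03 RPKM and *Vegfa* at 0.249 RPKM were each apart from their neighbours, which the plot of levels per exonic length shows. *Bnip3* lay near *Bnip3l* in control neurons, with 29.3 against 32.1 RPKM, and at 18.5 against 26.4 RPKM in *Hif1aCKO* neurons.

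**Figure D3:**
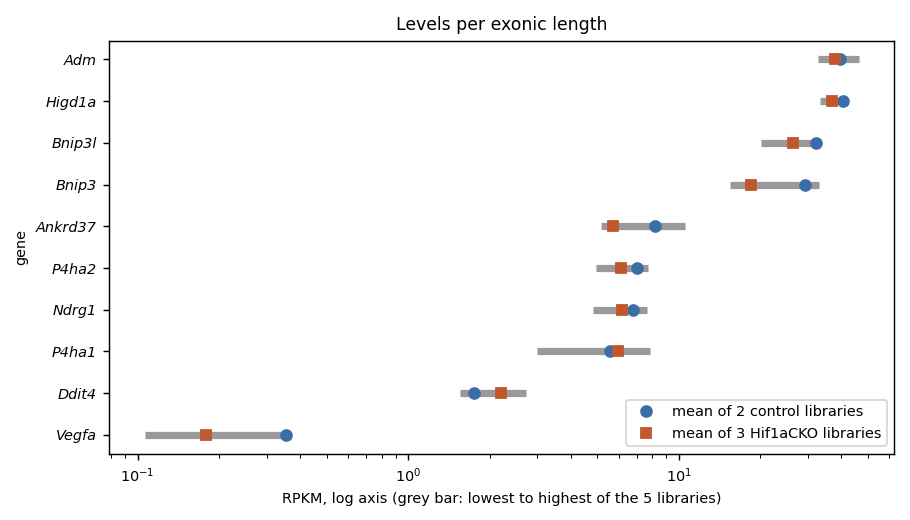
RPKM on a log axis for each of the 10 genes, with the control mean as a blue circle, the *Hif1aCKO* mean as an orange square, and a grey bar from the lowest to the highest of the 5 libraries. The 4 upper genes, from *Adm* to *Bnip3*, form overlapping bars above 15 RPKM, and *Vegfa* lies below 0.4 RPKM.

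Genes of proteins that work with the mitophagy receptors mostly had lower mean counts in *Hif1aCKO* neurons, and 0 were called. Of 17 tested genes of the mitophagy and LC3 family list, 14 had a log2 fold change below 0 and 3 above, with a median of -0.15. An unadjusted p-value under 0.05 in edgeR's test was reached by 2 of the 17, both on the lower side, beside 3.85% of all genes tested. *Map1lc3b*, which encodes 1 of the LC3 family proteins, had 4121 and 4740 normalized counts in control and 3547, 2472, and 2613 in *Hif1aCKO* libraries. Its log2 fold change was -0.62 (standard error 0.18, unadjusted p = 0.00758, adjusted p = 0.598, edgeR) with groups that did not overlap. The other was *Park2*, the gene of the ubiquitin ligase parkin, with 48 and 13 reads in control and 3, 3, and 1 reads in *Hif1aCKO* libraries, named here after its values were seen. Its mean normalized count was 13.8, below the 50 of the call rule. *Park2* passed the filter on low counts only through the control libraries, so it could enter the test only as a gene lower in *Hif1aCKO*. The autophagy adaptor gene *Sqstm1* had a log2 fold change of -0.18 (adjusted p = 0.780, edgeR). Other LC3 family genes had log2 fold changes of -0.009 (*Map1lc3a*), -0.15 (*Gabarap*), -0.23 (*Gabarapl1*), and -0.035 (*Gabarapl2*). Groups were apart on the lower side for 5 genes of the list and on the higher side for 2, *Fkbp8* (0.26) and *Ulk1* (0.49). These further genes are named after their values were seen.

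Receptor genes for the 2 ligands had few reads, apart from the neuropilins and the accessory gene *Ramp3*, with 43 to 105 reads. Of the VEGF and adrenomedullin list 11 genes were in the table and 6 were tested, 4 lower and 2 higher, with a median of -0.41 that turned to 0.26 without control replicate 6. *Nrp1*, a co-receptor for VEGF and for the axon guidance factor semaphorin 3A, had 1947 and 3009 normalized counts in control and 1765, 1201, and 1680 in *Hif1aCKO* libraries, with groups apart and a log2 fold change of -0.68 (unadjusted p = 0.0188, adjusted p = 0.621, edgeR). *Nrp2* had 997 and 933 against 1321, 1179, and 1084, a log2 fold change of 0.31 (unadjusted p = 0.0932, edgeR). For adrenomedullin, *Calcrl*, the receptor that RAMP proteins accompany, had at most 9 reads in a library. *Kdr*, the main signalling receptor of VEGF-A, had 0 and 41 reads in control and 1, 12, and 3 in *Hif1aCKO* libraries.

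Partners of the other members gave values on both sides of 0. In the collagen modification list 7 of 15 genes were lower and 8 higher. The median of 0.11 turned to -0.060 without control replicate 5, to -0.062 without *Hif1aCKO* replicate 3, and to -0.065 with limma-voom. *P4hb*, the beta subunit that pairs with both alpha subunits, had a log2 fold change of -0.15 (95% interval -0.50 to 0.20, adjusted p = 0.856, edgeR), and *Ppib*, a proline isomerase of the same pathway, had -0.055. *Colgalt1*, which adds galactose to collagen hydroxylysine, had 763 and 966 normalized counts in control and 591, 546, and 671 in *Hif1aCKO* libraries. Its log2 fold change was -0.52 (unadjusted p = 0.0226, adjusted p = 0.621, edgeR), and no other gene of the list had an unadjusted p-value under 0.05. Of 15 tested mTORC1 regulators, 4 were lower and 11 higher, and 0 had an unadjusted p-value under 0.05 in edgeR's test. Their median of 0.12 turned to -0.11 without control replicate 6, -0.030 without *Hif1aCKO* replicate 3, and -0.010 without *Hif1aCKO* replicate 4. Among these *Rheb*, the activator of mTORC1, had a log2 fold change of 0.08, and *Atf4*, a stress transcription factor, had 0.29 with groups that did not overlap.

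The relatives of *Ndrg1* had larger differences than *Ndrg1* itself, a contrast between genes that was not tested. *Ndrg2* had 576 and 891 normalized counts in control and 511, 398, and 289 in *Hif1aCKO* libraries (log2 fold change -0.88, unadjusted p = 0.0148, adjusted p = 0.618, edgeR). *Ndrg4* had 958 and 1312 against 925, 775, and 567 (log2 fold change -0.59, unadjusted p = 0.0393, adjusted p = 0.630, edgeR). The groups of both were apart. Over the 4 tested genes of the NDRG and HIGD families the median was -0.47. It was -0.26 without control replicate 6, -0.30 without *Hif1aCKO* replicate 5, -0.62 without *Hif1aCKO* replicate 3, and -0.65 without control replicate 5. *Higd2a*, the relative of *Higd1a*, had a log2 fold change of 0.03.

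**Figure D4:**
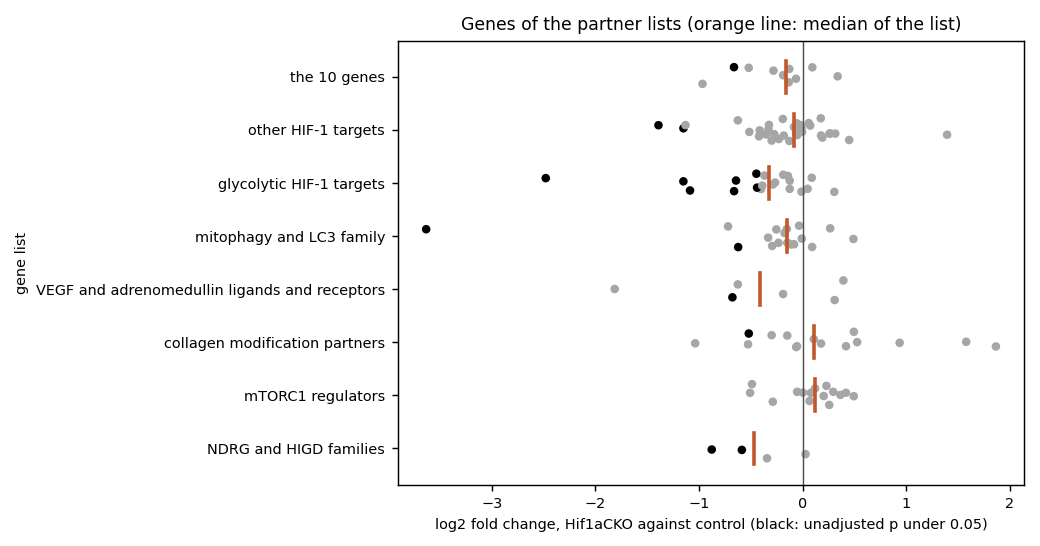
Log2 fold change of *Hif1aCKO* against control (x axis) for every tested gene of 8 lists (rows), with the median of each list as an orange line and genes at an unadjusted p-value under 0.05 in black. The black points lie below 0 in each row that has any, and the 10 genes have 1 of them, *Bnip3*.

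Against the rest of the HIF-1 program, the 10 genes are given side by side without a test of the difference. Of 33 tested genes of a list of other HIF-1 targets, 23 were lower and 10 higher, with a median log2 fold change of -0.08 and 2 at an unadjusted p-value under 0.05. That median was 0.0013 without control replicate 6, -0.18 without control replicate 5, and -0.16 without *Hif1aCKO* replicate 3. *Car12*, a membrane carbonic anhydrase that handles acid, had 190 and 295 normalized counts in control and 134, 109, and 84.7 in *Hif1aCKO* libraries, a log2 fold change of -1.15 (unadjusted p = 0.00912, adjusted p = 0.598, edgeR). The other was *Ier3*, an early response gene, with 49 and 58 reads in control and 17, 24, and 18 reads in *Hif1aCKO* libraries, named after its values were seen. The most abundant of the list were *Wsb1*, with a log2 fold change of 0.26, and *Mif*, with 0.06. Among 20 glycolytic targets 17 were lower and 3 higher, with a median of -0.33, and 7 had an unadjusted p-value under 0.05. Their median was -0.47 without *Hif1aCKO* replicate 3 and -0.23 without *Hif1aCKO* replicate 4. The smallest p-values there belonged to the glucose transporter gene *Slc2a3* (log2 fold change -1.15) and the phosphofructokinase gene *Pfkl* (-0.66), and DESeq2 called *Slc2a3*, with an adjusted p-value of 0.000168.

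The sorted cells carried the markers of their label, and the summed levels of several marker lists differed between the genotypes. The quasi-likelihood test of edgeR called 0 genes in any list. DESeq2 calls differed, as for *Isl1* of the sympathetic neuron list, which it called (log2 fold change -0.67, adjusted p = 0.000214, DESeq2). All 14 genes of the sympathetic neuron list were tested, with a summed level of 11837 and 14319 CPM in control and 10224 to 10598 in *Hif1aCKO* libraries, 10 lower and 4 higher. An unadjusted p-value under 0.05 in edgeR's test was reached by 8 of the 14, 7 lower and 1 higher, beside 7.67% of all genes tested. *Stmn2*, *Tubb3*, and *Gata3* were the most abundant of the list. All 18 genes of the G2/M phase list had higher means in *Hif1aCKO* neurons, 14 of them at an unadjusted p-value under 0.05, with a median of 0.70 and a summed level of 3324 and 3936 against 4969 to 6510 CPM. Of the 6 chromaffin cell genes, 5 were tested, 4 lower and 1 higher, and 3 of the lower ones had an unadjusted p-value under 0.05 in edgeR's test. The sum was 740 and 1106 against 167 to 642 CPM. Most of that sum was *Chgb*, while *Pnmt*, the adrenaline-synthesizing enzyme, had at most 55 reads. The list includes *Epas1*, which encodes the alpha subunit of HIF-2 that shares targets with HIF-1. *Epas1* had 485 and 568 normalized counts in control and 109, 338, and 168 in *Hif1aCKO* libraries (log2 fold change -1.36, unadjusted p = 0.0116, adjusted p = 0.599, edgeR). In bulk libraries fewer cells of a type and less RNA per cell cannot be told apart, and the part of these shifts in the values of the 10 genes was not tested.

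The values for markers of other cell types follow, beside the Schwann cell genes given above. The endothelial list had 3 of 8 genes in the table with a sum of 7.98 and 10.1 CPM in control and 6.23 to 7.72 in *Hif1aCKO* libraries, with 36 to 62 reads of *Egfl7* in every library, while *Pecam1* had 0 reads in 3 libraries. For mesenchyme 6 of 9 genes gave sums of 4.03 and 19.2 against 11.9 to 40.3 CPM, nearly all from *Postn*, while *Lum* had at most 1 read and *Col1a1* at most 6. For red cells, where *Bnip3l* is prominent, 1 of 8 genes was in the table, *Alas2*, with 8 to 31 reads. The macrophage list had 2 of 7 genes, with 31 to 112 reads of *Csf1r*, and sums of 4.17 and 7.53 against 9.93 to 12.8 CPM. The Schwann cell precursor genes summed to 3.50 and 6.31 CPM in control and 5.37 to 137 in *Hif1aCKO* libraries, with the top value in replicate 3. The part of these cells in the values of the 10 genes was not tested.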

How the data were processed

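Each library was made from 100 sorted cells with a low input kit and sequenced on an Illumina instrument. The authors trimmed the reads with cutadapt (version 1.18 in the submitters' processing notes) and Trimmomatic, removed ribosomal and vector reads with Bowtie (version 1.2.2) and SortMeRNA, mapped to GRCm38 with STAR (version 2.7.0c), and deposited raw counts per gene from Rsubread without multi-mapping reads. Counts were used as deposited, for 20224 genes, of which 29 had no entry in GENCODE M21 (GRCm38), the source of names and lengths.

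Depth ranged from 8254211 to 9700887 counts per library, which limits genes with few reads. Counts of libraries of a genotype differed by more than sampling noise (chi-square per degree of freedom 15.5 to 26.4), and no library was counted as a duplicate. The samples were grouped by genotype from their labels. Whether the libraries of a group came from separate litters is not given, so p-values measure the spread between these libraries. *Hif1aCKO* and control were compared with edgeR (version 4.0.16, R version 4.3.3), with filterByExpr, TMM, the quasi-likelihood test, and Benjamini-Hochberg adjustment over 15032 genes. Standard errors are the log2 fold change over the root of the F statistic, and intervals use the t distribution of the fit. Exact permutation tests were two-sided, on mean log2(CPM + 0.5). RPKM used the summed exon length. The alternatives comprised DESeq2 (version 1.42.0), normalization by RLE or upper quartile, the likelihood ratio test, limma-voom (limma version 3.58.1), 2 other filters, an adjusted p-value under 0.1, and leaving out each library. Scripts were tested on simulated data. The 10 genes and the gene lists were chosen with earlier results of these data known. Named genes were the 10 genes, *Hif1a*, *Isl1*, and *Prph*, up to 5 genes per list at an unadjusted p-value under 0.05 with a mean normalized count of at least 50 or else the 2 most abundant, and the most abundant or absent markers. Motif sites were searched in RefSeq promoters. Python (version 3.11.15) with matplotlib (version 3.10.9) drew the plots.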

Additional observations from a re-analysis of the deposited data

How the results depend on the processing

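No alternative called any of the 10 genes. Of 119 recomputed log2 fold changes of these genes, 113 kept their direction, and the 6 that turned came from leaving out a library: *Adm* to 0.21 without control replicate 5 (lowest value -0.30, without control replicate 6), *P4ha1* to -0.40, -0.076, and -0.12 without control replicate 5 and *Hif1aCKO* replicates 3 and 4 (highest value 0.84, without control replicate 6), and *Ndrg1* to 0.039 and 0.021 without control replicate 6 and *Hif1aCKO* replicate 3. The cause was not tested. For the whole table the count of called genes was 60 with DESeq2, 40 with the likelihood ratio test of edgeR, and 0 to 4 when each library was left out, with 4 without control replicate 5. The median of the 10 genes was -0.16 and ranged from -0.31, without control replicate 5, to -0.12 when each library was left out, and without *Hif1aCKO* replicate 4 it was -0.25. *Vegfa* had too few reads to be tested with at least 10 counts in every library. Where 1 control library was left, it was assumed to vary like the *Hif1aCKO* libraries. No paired analysis was possible because the labels do not say which libraries, if any, belong together. Few reads limit *Vegfa* and *Ddit4*.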

Other observations

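Some listed genes outside the 10 had most of their reads in 1 library, and they are named after their values were seen. *Bhlhe40*, a transcriptional repressor, had 51 reads in control replicate 6 and 0 in each other library. The decoy receptor gene *Ackr3*, which binds adrenomedullin, had 34 reads in control replicate 6, 3 in *Hif1aCKO* replicate 5, and 0 elsewhere. *Stc2* had 26 and *Igfbp3* had 22 reads in *Hif1aCKO* replicate 4, against at most 8 and 5 in the other libraries. *Car9*, often used as a marker of hypoxia, had 1 and 0 reads in control and 1, 3, and 8 in *Hif1aCKO* libraries.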
